A study of Mus musculus with 6 samples.

Results

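The genes described here encode histone chaperones, the proteins that carry histones to and from DNA, together with 2 chromatin factors whose RNA is often high in dividing cells, Dek and Atad2. The set holds 10 genes of the 15553 in the deposited table, all of them present: Chaf1a, Chaf1b, Asf1a, Asf1b, Nasp, Hira, Daxx, Atrx, Dek and Atad2. They were chosen by gene symbol, from a set proposed with the RPKM values and genotype differences of this same table in view. Their differences between genotypes are therefore given as descriptions, with no p-value. Counts of members past the test across all genes are given only beside the share of all genes, and nothing is read from them.

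RNA was sequenced from stem and progenitor cells of C57BL/6 mouse bone marrow, sorted as lineage-negative, Sca1-positive and c-Kit-positive cells, from animals aged 6 to 8 weeks. The wild-type group (3 libraries) carried Mx1-Cre, and the knockout group (3 libraries) carried Yy1f/f;Mx1-Cre, that is, the same Cre together with 2 floxed alleles of Yy1. Mx1-Cre is a recombinase driven by an interferon-inducible promoter that is active in blood cells and in other tissues, so the deletion is not limited to stem cells. The extract protocol names a CD48-negative, CD150-positive gate and a CD48-negative, CD150-negative gate, while each sample's source names the CD150-positive one. The labels name no inducing agent and do not say whether each library came from its own mouse, so the spread between libraries may be technical in part.

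New nucleosomes are built by a relay of chaperones. NASP keeps a soluble store of histone H3 with H4, ASF1A and ASF1B hand pairs of them on, CAF-1 (the large subunit CHAF1A, the middle subunit CHAF1B and RBBP4) deposits them behind the replication fork through its contact with PCNA, and HIRA or DAXX with ATRX deposits the replacement histone H3.3 outside replication. DEK binds DNA and histones and is an oncoprotein fused to another gene in some acute myeloid leukaemias, while ATAD2 is a bromodomain ATPase that binds acetylated H4 on newly replicated chromatin and acts with E2F and MYC proteins. Genes of the replication-coupled arm are known targets of E2F, and genes used later in the cycle often carry CCAAT boxes and a cell cycle homology region, bound by NF-Y and by the DREAM and MuvB complexes.

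The sequences before the transcription starts of 9 of the 10 genes were in the RefSeq promoter table (GRCm38.p6), and Atad2 was not matched. In each of their 11 windows (Daxx has 3), from 250 bases before to 50 bases after a start, these letters were searched on both strands: TTTGGCGC, TTTCCCGC, TTTGGCGG and TTTCGCGC for E2F, CCAAT for the CCAAT box, TTTGAA for the cell cycle homology region and AAGATGGC for YY1. The search letters of the different factors do not overlap each other at any match found. The Asf1b window is shown first, since Asf1b had the largest genotype difference of the set, as 30-base stretches around its matches on chr8, plus strand. Capitals mark the match, and ATTGG is CCAAT on the other strand.

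Asf1b chr8:83955481-83955510: ggagactccagggATTGGttcccgatagac
Asf1b chr8:83955560-83955589: gggagcttctctgATTGGtctgagggtcca
Asf1b chr8:83955602-83955631: aagacgcctcgagATTGGctgatggctcgc
Asf1b chr8:83955642-83955671: gtccttagcggcgATTGGctggaaggcgga
Asf1b chr8:83955664-83955693: aaggcggagccggctaTTTGAAgggagcgc

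The 4 ATTGG matches of Asf1b began 200, 121, 79 and 39 bases before the start, and TTTGAA began 14 bases before it. GENCODE M21 begins Asf1b upstream of the RefSeq start, at 83955507, and each of these stretches overlaps an annotated exon. For comparison, the stretch of the paralog Asf1a around its single CCAAT (chr10, plus strand) and those of Atrx around 3 of its 4 CCAAT matches (chromosome X, minus strand) are shown next. Atrx was the member with the smallest genotype difference.

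Asf1a chr10:53596931-53596960: agctcgggggcagCCAATcgcgggcaacgc
Atrx chrX:105929593-105929622: tttcaCCAATtatgtggaagtagagaggtt
Atrx chrX:105929420-105929449: tgaatttccgtagCCAATaagacactgagc
Atrx chrX:105929389-105929418: ctggcagaggtagCCAATagatgacggaaa

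The 140 bases before the starts of Chaf1a (plus strand), Dek and Nasp (both minus strand) lie outside annotated exons. They are shown because Chaf1a held the only E2F match of the set (CCGCCAAA, which is TTTGGCGG on the other strand) and Dek and Nasp the other TTTGAA matches, that of Dek 23 bases after the start and outside the stretch shown.

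Chaf1a chr17:56040276-56040415: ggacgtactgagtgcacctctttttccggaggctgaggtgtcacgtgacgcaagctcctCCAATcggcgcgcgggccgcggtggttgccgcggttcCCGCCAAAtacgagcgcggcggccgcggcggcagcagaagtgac
Dek chr13:47106222-47106361: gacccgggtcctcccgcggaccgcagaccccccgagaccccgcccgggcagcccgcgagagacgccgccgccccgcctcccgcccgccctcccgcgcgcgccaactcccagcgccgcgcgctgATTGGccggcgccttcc
Nasp chr4:116627952-116628091: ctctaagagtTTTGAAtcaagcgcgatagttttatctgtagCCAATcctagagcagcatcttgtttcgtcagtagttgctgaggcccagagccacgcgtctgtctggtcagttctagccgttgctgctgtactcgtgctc

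CCAAT was found for 7 of the 9 genes (Asf1a, Asf1b, Atrx, Chaf1a, Daxx, Dek and Nasp), against 37.4% of all 32851 windows in the table. The members are counted by gene and the shares by window, and Daxx held CCAAT in only 1 of its 3 windows. TTTGAA was found for 3 of 9 (Asf1b, Dek and Nasp), against 17.9% of all windows, and both letters together for the same 3, against 6.95%. An E2F match was found for 1 of 9 (Chaf1a), against 2.37% of windows. The YY1 letters were found for 0 of 9, against 2.75%. A stretch just after the start was found in a GENCODE M21 transcript of the same gene for each window except that of Hira. The place of the Hira window, and so its lack of matches, is less certain. A window with 4 or more CCAAT, a count singled out after seeing Asf1b, occurred in 1.06% of all windows and in the set for Asf1b and Atrx. Windows of genes in the comparison below gave 38.1% for CCAAT, 12.1% for TTTGAA, 5.10% for both, 4.48% for E2F, 4.79% for YY1 and 1.87% for 4 or more CCAAT.

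**Figure D1:**
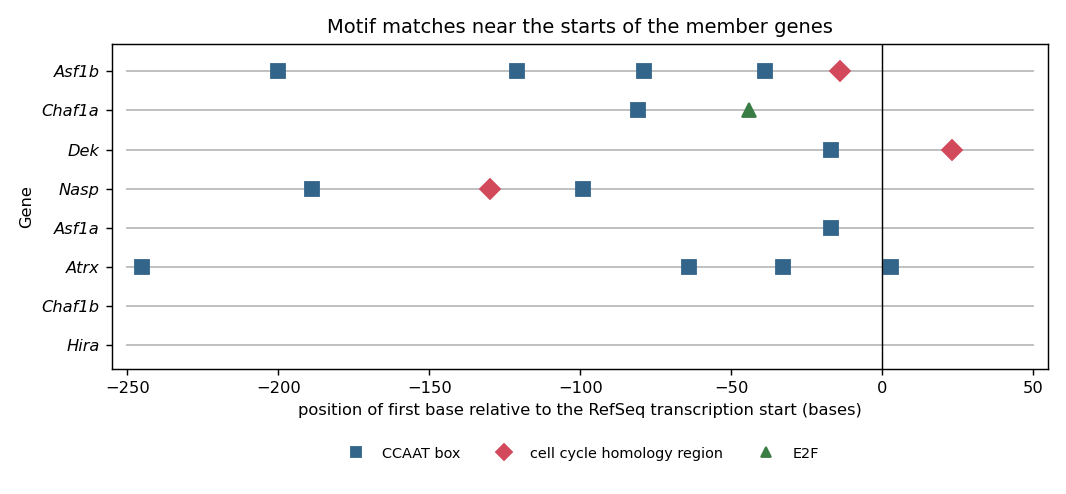
Positions of motif matches in the windows of 8 members, in bases from the RefSeq transcription start (vertical line), with squares for CCAAT, diamonds for TTTGAA and a triangle for E2F letters, on either strand; Daxx, with 3 windows and 1 CCAAT, is not drawn. Asf1b and Atrx each carry 4 CCAAT, Asf1b also has TTTGAA 14 bases before its start, and Chaf1b and Hira have no match. The Hira window could not be tied to a GENCODE M21 transcript of Hira.

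Values below are RPKM, reads divided by the length of a gene and by a library size set by the authors, and all means are ± SD over 3 libraries. Reads recovered from RPKM and gene length numbered 1.51e+07 to 2.18e+07 per library in the listed genes, which exceeds the library size behind the RPKM values by a factor of 1.15 to 1.17 (wild type) or 1.11 to 1.12 (knockout). The cause of that gap was not tested. Yy1 (ENSMUSG00000021264) itself had 31.6, 42.3 and 52.1 RPKM across the wild-type libraries, against 36.2, 16.6 and 28.5 across the knockout libraries. The library labelled knockout replicate 1 lies inside the wild-type range, so at this gene it goes against its label, and the name knockout replicate 1 below follows the label only. The Yy1 log2 difference was -0.66 (standard error 0.32, adjusted p = 0.680 in limma, 0.564 to 0.896 over the alternatives). It was -0.90 without knockout replicate 1, -0.35 without knockout replicate 2 and -0.49 without wild type replicate 3. The labels do not say which part of Yy1 is deleted, so RPKM over the whole gene need not fall with the deletion. Wild type replicate 3 stood apart on the first principal component of all genes (34.6% of the variance). It also had the most genes at 0 RPKM, 1991 against 373 to 1099 in the other libraries. Wild type replicate 1 stood apart on the second component, at 84.1 against -47.2 to 6.30 in the other libraries. Members and list medians are given below without some of these libraries, but not in every case where leaving a library out moves them.

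All 10 genes passed the filter of at least 1 RPKM in at least 3 libraries, though Asf1b had 0.993, 3.40 and 1.04 RPKM in wild type and was carried by the knockout libraries. In limma over 13179 genes, 0 of the 10 had a Benjamini-Hochberg adjusted p under 0.05, where 0% of all genes did. At an unadjusted p under 0.05 limma gave 1027 genes, and limma-voom on recovered reads, an alternative test, called 6 genes and 0 of the 10. The authors' deposited table calls 0 of the 10 at an adjusted p under 0.05, where it calls 0.154% of its 15553 genes. In 4 members (Asf1b, Chaf1a, Dek and Atad2) all knockout libraries lay above all wild-type libraries, where 7.63% of tested genes did, and in 0 members all lay below, where 6.87% did. The other 6 overlapped.

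**Figure D2:**
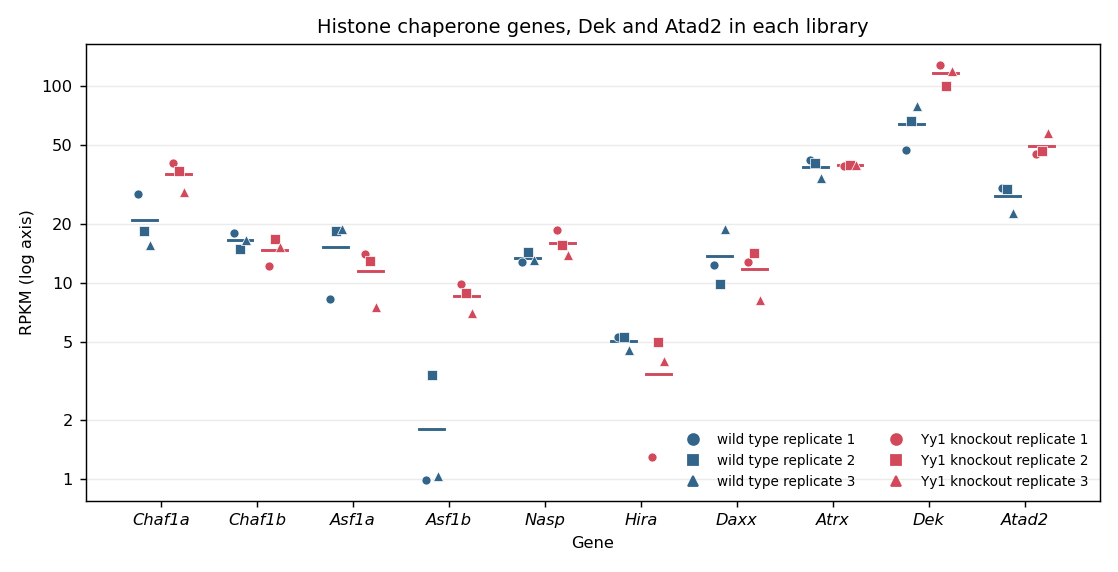
RPKM (log axis) of each member in each library, with circles, squares and triangles for replicates 1 to 3, wild type in blue and knockout in red, and bars at the arithmetic means. Chaf1a, Asf1b, Dek and Atad2 have no overlap between genotypes, and knockout replicate 1 sits far below the other libraries for Hira.

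The CAF-1 subunits differed from each other. Chaf1a (ENSMUSG00000002835, chromosome 17: 56040439 to 56072289), the subunit that contacts PCNA, had 28.3, 18.4 and 15.5 RPKM across the wild-type libraries, against 40.8, 37.1 and 28.9 across the knockout libraries. The ranges came close, at the highest wild-type and the lowest knockout library, but did not overlap. Means were 20.8 ± 6.72 and 35.6 ± 6.11 RPKM, and the difference on the log2(RPKM + 0.5) scale, where changes of low genes come out too small, was 0.79 (standard error 0.27). It was 0.69 without knockout replicate 1, 0.61 without wild type replicate 3 and 1.04 without wild type replicate 1. Under quantile normalization the Chaf1a ranges overlapped.

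Chaf1b (ENSMUSG00000022945, chromosome 16: 93883901 to 93906115), the WD-repeat subunit, had 17.999, 14.8 and 16.6 RPKM across the wild-type libraries, against 12.2, 16.6 and 15.3 across the knockout libraries. Its genotype ranges overlapped, with knockout replicate 1 the lowest library. The log2 difference was -0.16 (standard error 0.23), and -0.04 without that library. The ratio of Chaf1a to Chaf1b RPKM was 1.57, 1.25 and 0.935 for wild type, against 3.35, 2.23 and 1.89 for knockout, with no overlap. That is a log2 difference of the ratio of 0.98, or 0.74 without knockout replicate 1 and 0.79 without wild type replicate 3. In bulk RNA such as this, fewer cells of a type and less RNA per cell cannot be told apart.

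The ASF1 paralogs also differed from each other. Asf1b (ENSMUSG00000005470, chromosome 8: 83955507 to 83970197), the paralog tied to dividing cells, stood at 9.90, 8.85 and 6.98 RPKM in knockout against the wild-type values given above, a mean of 8.58 ± 1.48 against 1.81 ± 1.37 RPKM. These rest on 30, 128 and 36 reads in wild type and on 403, 362 and 319 in knockout. Every knockout library lay above every wild-type library, and the mean RPKM was 4.74 times that of wild type. The log2 difference was 2.11 (standard error 0.50), larger than that of 98.6% of tested genes. It was 2.01 without knockout replicate 1 and 1.90 without wild type replicate 3. It was 2.57 without wild type replicate 2, the wild-type library with the highest Asf1b value.

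Asf1a (ENSMUSG00000019857, chromosome 10: 53596757 to 53609225), the paralog that also works with HIRA, had 8.31, 18.3 and 18.8 RPKM across the wild-type libraries, against 14.0, 12.9 and 7.51 across the knockout libraries. The lowest library of each genotype lay close to that of the other, and the ranges overlapped. Its log2 difference was -0.35 (standard error 0.40). Without wild type replicate 1 it was -0.72 with no overlap, and without knockout replicate 1 it was -0.51. Leaving out wild type replicate 3 gave -0.15 and leaving out knockout replicate 3 gave -0.08, so its size turns on single libraries.

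Within each library, the RPKM of Asf1b lay below that of Asf1a in both genotypes. The reads of Asf1a are estimates and part of its exons is shared with Mcm9, so the order in knockout is uncertain. The ratio of Asf1b to Asf1a RPKM was 0.120, 0.186 and 0.0553 for wild type, against 0.706, 0.687 and 0.930 for knockout. The genotypes did not overlap, and the ratio was 7.16 times higher in knockout (geometric means), a log2 difference of 2.84 that ranged from 2.36 to 3.24 when each library in turn was left out. The 2 paralogs summed to 17.0 ± 6.69 RPKM for wild type against 20.05 ± 4.93 RPKM for knockout, with overlap.

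**Figure D3:**
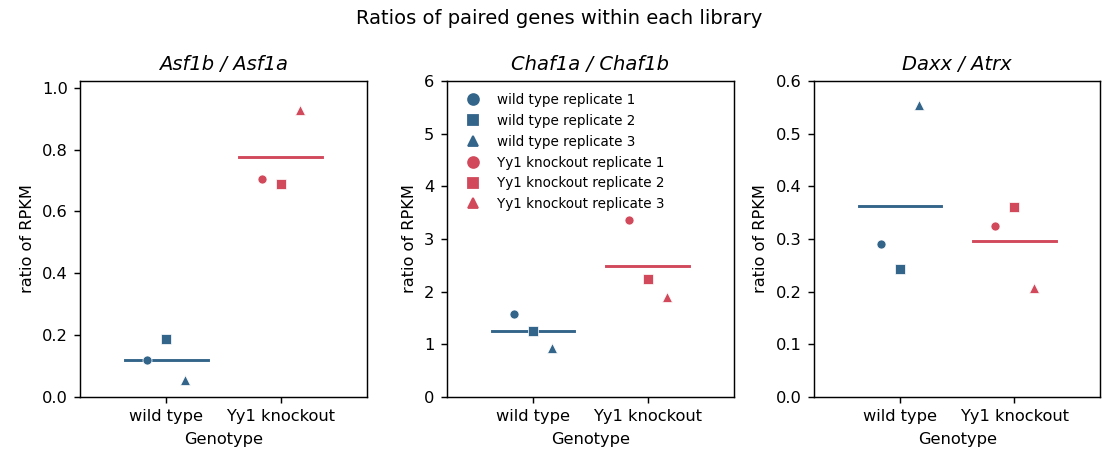
Ratio of RPKM of Asf1b to Asf1a, Chaf1a to Chaf1b and Daxx to Atrx within each library (circles, squares and triangles for replicates 1 to 3, bars at the arithmetic means, axes from 0). The first 2 ratios are higher in all 3 knockout libraries than in any wild-type library, and the Daxx to Atrx ratio overlaps.

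Nasp (ENSMUSG00000028693, chromosome 4: 116601052 to 116627941), which guards soluble H3 and H4, had 12.7, 14.4 and 13.1 RPKM across the wild-type libraries, against 18.7, 15.6 and 13.8 across the knockout libraries. Knockout replicate 3 fell inside the wild-type range, so the genotypes overlapped. The log2 difference of 0.24 (standard error 0.23) was 0.13 without knockout replicate 1, the highest Nasp library. Nasp had the lowest relative spread of the set in wild type, an SD of 6.49% of the mean, where tested genes within 2-fold of its level had a median of 28.9%.

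None of the 3 genes of H3.3 chaperones separated the genotypes over all 6 libraries. Hira (ENSMUSG00000022702, chromosome 16: 18877037 to 18970309), the scaffold of the HIRA complex, had 5.31, 5.28 and 4.53 RPKM across the wild-type libraries, against 1.30, 4.996 and 3.99 across the knockout libraries. The low value of knockout replicate 1 made up most of the difference: the log2 difference was -0.64 (standard error 0.51) with it and -0.16 without it. The Hira reads in that library were an estimate of 141, against 417 to 543 in the other 5. Without wild type replicate 3 the difference was -0.71 and without knockout replicate 2 -0.96, and in both cases, as under quantile normalization, all knockout values lay below wild type.

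Daxx (ENSMUSG00000002307, chromosome 17: 33909414 to 33915590), the H3.3-binding partner of ATRX, had 12.3, 9.86 and 18.8 RPKM across the wild-type libraries, against 12.8, 14.3 and 8.19 across the knockout libraries. The ranges overlapped, and its log2 difference of -0.20 (standard error 0.34) turned to 0.05 without wild type replicate 3 and to 0.03 without knockout replicate 3. Leaving out knockout replicate 1 gave -0.27. Atrx (ENSMUSG00000031229, chromosome X: 105797615 to 105929403), a SWI/SNF-family ATPase gene, had 42.2, 40.7 and 34.0 RPKM across the wild-type libraries, against 39.4, 39.6 and 39.7 across the knockout libraries. All 3 knockout libraries lay inside the wild-type range, with a log2 difference of 0.03 (standard error 0.17), which was -0.07 without wild type replicate 3, with all knockout values then below wild type. The SD of the knockout libraries was 0.399% of their mean, where tested genes within 2-fold of that level had a median of 17.1%. The Daxx to Atrx ratio averaged 0.362 ± 0.168 for wild type and 0.297 ± 0.0804 for knockout, with overlap, and had a log2 difference of -0.23. That difference was 0.12 without wild type replicate 3, 0.01 without knockout replicate 3, -0.39 without knockout replicate 2 and -0.48 without wild type replicate 2.

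Dek (ENSMUSG00000021377, chromosome 13: 47084775 to 47106201) was the most abundant member in both genotypes. It had 47.6, 66.9 and 79.1 RPKM across the wild-type libraries, against 129, 101 and 119.8 across the knockout libraries, a mean of 64.5 ± 15.9 against 116 ± 14.2 RPKM. Each knockout library lay above the highest wild-type library, wild type replicate 3. The log2 difference was 0.87 (standard error 0.22), and it was 0.79 without knockout replicate 1, 1.03 without wild type replicate 3 and 0.67 without wild type replicate 1.

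Atad2 (ENSMUSG00000022360, chromosome 15: 58094044 to 58135082) had 30.4, 29.97 and 22.6 RPKM across the wild-type libraries, against 45.2, 46.6 and 57.6 across the knockout libraries. The gap between the genotypes was larger than the range within wild type. Means were 27.7 ± 4.34 and 49.8 ± 6.82 RPKM, and the log2 difference was 0.84 (standard error 0.20), 0.91 without knockout replicate 1 and 0.71 without wild type replicate 3. Atad2b, its paralog, averaged 19.3 ± 4.27 RPKM over wild-type and 16.6 ± 1.75 RPKM over knockout libraries (log2 difference -0.20, standard error 0.24), with overlap. The authors' deposited table gives log2 fold changes of 0.86 for both Dek and Atad2, 0.82 for Chaf1a and 2.41 for Asf1b.

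By RPKM, which is per length, the wild-type order ran Dek, Atrx, Atad2, Chaf1a, Chaf1b, Asf1a, Daxx, Nasp, Hira and Asf1b. The order between genes rests on gene lengths set by the authors. Some members also share exons with other genes, as given below, so the order is uncertain in part. From Atad2 down to Nasp each neighbour overlapped the next in its library values, while Dek, Atrx, Hira and Asf1b each stood clear of their neighbours. Knockout libraries gave the order Dek, Atad2, Atrx, Chaf1a, Nasp, Chaf1b, Daxx, Asf1a, Asf1b and Hira. There Atad2 lay above Atrx and Asf1b above Hira without overlap, while Atrx and Chaf1a overlapped, as did each neighbouring pair from Nasp to Asf1b. Asf1b lay above 8.29% of tested genes by its wild-type mean and above 48.3% by its knockout mean. Dek lay above 94.7% and 97.3%.

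Exons of 4 members overlap those of another gene, and the sources used here do not give the strand setting of the counting, so reads in the shared parts cannot be assigned with certainty. Chaf1a shares 4648 of its 8854 exonic bases with Ubxn6 on the opposite strand, which averaged 8.75 ± 0.461 RPKM over wild-type and 6.33 ± 2.32 over knockout libraries. Asf1a shares 1748 of 3638 with Mcm9, also on the opposite strand, at 5.21 ± 0.550 and 6.06 ± 1.91 RPKM. Dek shares 505 of 3185 with Kdm1b, at 6.99 ± 2.33 and 4.19 ± 0.857 RPKM, and Hira 2778 of 6215 with Gm28539 on its own strand. Of the members, 3 (Asf1b, Nasp and Atrx) had RPKM values that were whole reads in all 6 libraries, within 0.02 reads.

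Other histone chaperone genes were taken from a list of 30 chosen by function, all of them tested. This list and those below were drawn up with earlier results of these data known, so their counts and medians are descriptions. In limma 0 of 30 passed at an adjusted p of 0.05. The median log2 difference was 0.23, where the median of all tested genes was 0.02, and 25 lay above 0 and 5 below, where 51.9% of all tested genes lay above. No overlap between genotypes was seen in 9 of 30 that were higher in knockout, where 7.63% of all tested genes were, and in 1 that was lower, where 6.87% were. The list median was 0.21 without knockout replicate 1 and also 0.21 without wild type replicate 3.

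The 8 genes of that list with the smallest p in limma covered several chaperone families. Hjurp, the chaperone of CENP-A, had 30.4 ± 8.24 RPKM in wild type against 43.8 ± 6.63 RPKM. It had no overlap between genotypes, as had Ssrp1, a subunit of the FACT complex, at 104 ± 5.89 and 146 ± 8.47 RPKM, and Anp32e, which removes H2A.Z, at 77.2 ± 2.93 and 106 ± 7.31 RPKM.

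Anp32b, a relative of Anp32e that binds H3 and H4, was also higher in every knockout library (256 ± 34.7 and 314 ± 15.3 RPKM). So were the nucleoplasmin-family gene Npm1 (210 ± 45.4 and 304 ± 51.4 RPKM) and the H2A and H2B chaperone gene Nap1l1 (69.2 ± 5.03 and 89.6 ± 11.7 RPKM). Hat1, which acetylates new H4, overlapped at 26.8 ± 6.62 and 36.5 ± 5.96 RPKM. Npm3, another gene of the nucleoplasmin family, was the 1 gene lower in every knockout library (log2 difference -1.03, standard error 0.31). It had 26.5, 18.2 and 35.2 RPKM over wild-type and 9.20, 14.5 and 14.1 RPKM over knockout libraries. Of the CAF-1 partner Rbbp4, the log2 difference was -0.02 (standard error 0.18), and of the HIRA partners Ubn1 and Cabin1, 0.03 and 0.10 (standard errors 0.22 and 0.30).

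**Figure D4:**
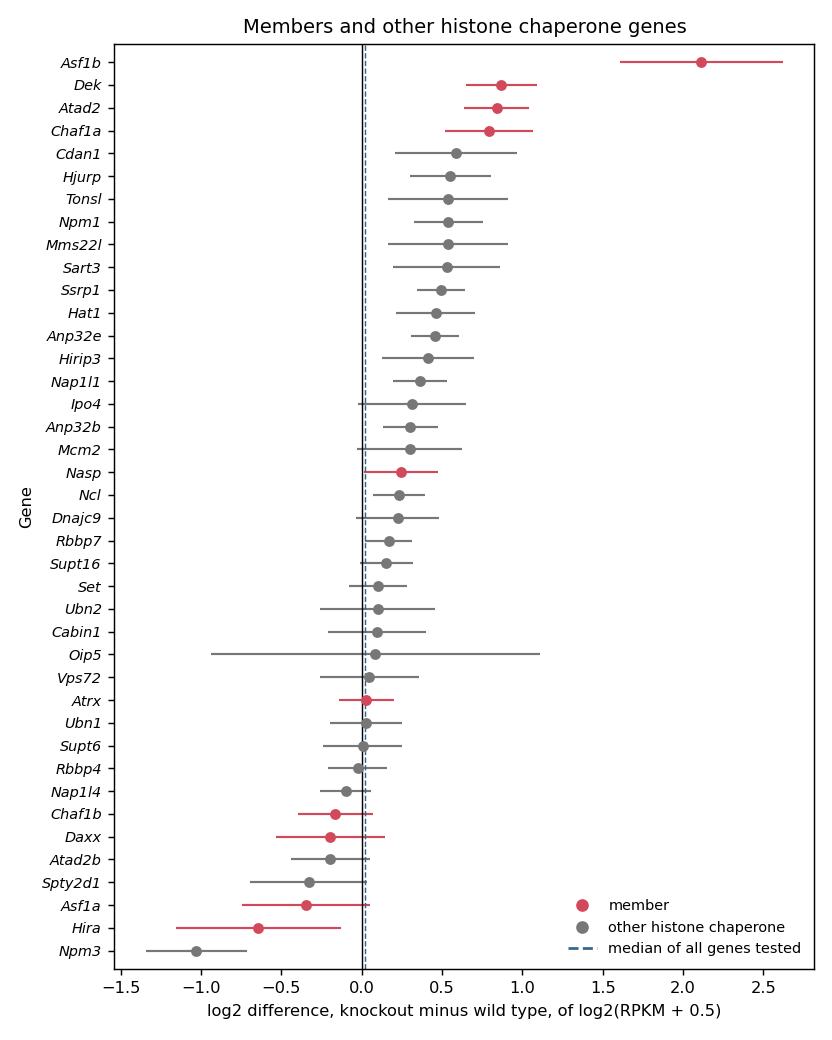
Difference between genotypes of log2(RPKM + 0.5), knockout minus wild type, for the 10 members (red) and 30 other histone chaperone genes (grey), with bars of 1 standard error from limma and a dashed line at the median of all tested genes. Asf1b lies at the top at 2.11, Hira and Npm3 at the bottom at -0.64 and -1.03, and 0 of these genes passed the adjusted threshold.

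Genes of replication and division were also mostly higher in knockout. Of 20 replication partners, PCNA and its loader among them, 19 lay above 0 with a median log2 difference of 0.57 (0.38 without wild type replicate 3), and 0 passed in limma. Pcna, the clamp that recruits CAF-1, had 125 ± 6.48 RPKM in wild type against 162 ± 21.9, and Mcm6, a helicase subunit gene, 89.0 ± 5.55 against 123 ± 16.3 RPKM, both with no overlap, and Mcm3 overlapped at 60.1 ± 8.57 and 64.6 ± 5.28 RPKM. Of 12 division markers, 12 lay above 0 with a median of 1.42 (1.04 without that library), 0 passed in limma, and their summed RPKM was 120 to 195 in wild type and 420 to 439 in knockout. Mki67 (the Ki-67 antigen) had 54.0 ± 22.4 RPKM against 153 ± 8.51, Top2a (topoisomerase) 30.2 ± 10.2 against 76.7 ± 2.35 RPKM and Kif11 (a spindle motor) 14.8 ± 0.412 against 40.6 ± 1.04 RPKM. The authors' deposited table gives these 3 adjusted p-values of 8.8e-06, 0.000107 and 0.00292. The summed RPKM of the 10 members was 206 to 224 in wild type and 297 to 323 in knockout. The part of dividing cells in the members' differences was not tested.

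Kit, a gene of the sort, averaged 126 ± 14.1 RPKM over wild-type and 78.8 ± 3.27 over knockout libraries, and Ly6a (Sca1) ran from 26.1 to 84.7 RPKM. Slamf1 (CD150) ran from 2.21 to 5.96 RPKM, and Cd48, which the gates exclude, was listed at 0 in 3 libraries and reached 3.76 RPKM. The summed RPKM of the list of 10 stem and progenitor genes, Cd48 included, was 566 to 649 in wild type and 391 to 421 in knockout. Among other cell types, 6 of 6 megakaryocyte and platelet markers were in the table, with a summed RPKM of 19.5 to 36.5 in wild type and 51.3 to 104 in knockout. Granulocyte markers (7 of 7) summed to 17.7 to 144 and 31.4 to 260 RPKM. The highest sum of each genotype was in replicate 2, and the other libraries had 17.7 to 58.6 RPKM. Erythroid markers (4 of 7, without Hba-a1, Klf1 and Alas2) summed to 31.2 to 46.9 and 34.7 to 66.5 RPKM. Monocyte markers (2 of 5, nearly all of it Lyz2) summed to 80.1 to 121 and 67.6 to 95.6 RPKM, and B cell markers (1 of 5, Cd79b) to 13.3 to 28.6 and 9.15 to 21.4 RPKM. Sums were 5.07 to 15.6 and 4.32 to 9.19 RPKM for T and NK cells (2 of 5) and 8.98 to 14.5 and 8.97 to 11.8 RPKM for stroma and endothelium (4 of 5). Their part in the members' differences was not tested.

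Genes of like pattern were sought over the 6 libraries among 9237 genes with a mean of at least 5 RPKM, by the root mean square distance between log2 profiles centred on their means. Closest to the mean profile of Chaf1a, Chaf1b, Asf1b, Nasp, Dek and Atad2 were Gm10175 (distance 0.07), Slfn9 (0.08), Cbfb, which encodes the partner of RUNX factors (0.09), Lmnb1, the gene of lamin B1 (0.10), and Tmpo, the gene of the nuclear envelope protein LAP2 (0.11). The median distance of the genes compared was 0.56. The members averaged in this profile ran from a log2 difference of -0.16 (Chaf1b) to 2.11 (Asf1b), so it need not match each of them. Cbfb, for example, averaged 42.0 ± 8.32 RPKM over wild-type and 72.8 ± 4.74 over knockout libraries, and Lmnb1 averaged 43.0 ± 5.49 and 75.2 ± 12.2 RPKM. Closest to the mean profile of Asf1a, Hira, Daxx and Atrx were the ETS factor gene Elf1 (0.05), Tomm34 (0.06), Phf21a (0.07), Stxbp4 (0.07) and Gpr132 (0.07), where the median distance was 0.44. Members of that profile ran from a log2 difference of -0.64 (Hira) to 0.03 (Atrx).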

How the data were processed

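Per the labels' protocols, RNA was purified with a kit for small samples and made into libraries with the Ovation RNA-Seq System, which amplifies RNA, so reads are not independent molecules. The authors worked on mm10 with Subread, featureCounts, edgeR and limma, per the submitters' processing notes; the sources used here give no versions, settings, annotation, strand or filter behind the 15553 genes listed. The deposited values of the 6 libraries are RPKM, a unit found from the values: multiplied by GENCODE M21 exonic length they were whole multiples of 1 step, within 0.02 reads, in all libraries for 71.8% of 15465 genes with a length, and reads of the other genes are estimates. The authors' comparison is deposited as log2 fold changes with raw and adjusted p-values, per the file headers, from an unnamed test.

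Genotypes were compared on log2(RPKM + 0.5) by limma (3.58.1, R 4.3.3) with a variance trend, over 13179 genes that reached 1 RPKM in 3 or more libraries, with Benjamini-Hochberg adjustment. The fit was run on simulated data, where the check was that median differences came back near those put in. The simulated libraries held no outlying library, so that run does not bear on the number of genes called here. Members and lists were chosen with earlier results of these data known. The list of other chaperones was cut by 1 gene that is not reported here, and its counts and medians were recomputed. Named are all members, the 8 other chaperone genes with the smallest p, the 3 most abundant genes of each context list, the 5 genes closest to each profile, and, added after values were seen, Atad2b, Rbbp4, Ubn1, Cabin1, Kit, Ly6a, Slamf1, Cd48, H3f3a, Cenpa, Sp100 and genes with overlapping exons. Alternatives were other pseudocounts (0.1 and 1), filters (none and 5 RPKM), scalings, no trend, limma-voom, the replicate block and each library left out. Promoters came from RefSeq (GRCm38.p6) and coordinates from GENCODE M21 (GRCm38).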

Additional observations from a re-analysis of the deposited data

How the results depend on the processing

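Of the members, 8 kept the direction of their log2 difference in each alternative that gave a value (15, or 14 for Hira, which the filter at 5 RPKM removed). Daxx turned when wild type replicate 3 or knockout replicate 3 was left out and Atrx when wild type replicate 3 was. The number with no overlap and higher in knockout ran from 3 to 5 (7.08% to 9.05% of all genes with 6 libraries, 11.6% to 14.2% with 1 left out), and Asf1b, Dek and Atad2 were among them in each alternative. The number with no overlap and lower was 1 under quantile normalization (Hira, where 7.46% of all genes did so) and 0 to 2 when each library was left out (10.5% to 13.6% of all genes).

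Limma-voom on recovered reads called 6 genes, among them 3 of the 12 division markers, and gave the other histone chaperones a median of 0.30. With each library left out, genes past the test numbered 0 to 1 and genes higher at an unadjusted p under 0.05 numbered 377 to 758, the lowest counts without knockout replicate 3 (377) and knockout replicate 1 (410) against 624 with all libraries. The median of the other histone chaperones then ran from 0.20 to 0.29, of the division markers from 1.04 (without wild type replicate 3) to 1.59, and of the chaperone cargo genes from 0.17 (without knockout replicate 3) to 0.49. The cause of these shifts was not tested.

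Same-numbered libraries deviated together only weakly across genes (correlations of 0.02, 0.06 and 0.05, against -0.08 to 0.04 for different numbers). Granulocyte markers were highest in replicate 2 of both genotypes. The labels do not say whether equal numbers share a batch, and these correlations cannot settle it. With the replicate block, genes past the test numbered 0, as without it, and genes higher at an unadjusted p under 0.05 numbered 628. Wild-type Asf1b, at 30 to 128 reads, is the thinnest value of the set.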

Other observations

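The 7 histone variant genes listed as chaperone cargo are not all cargo of the members. Among them the H3.3 gene H3f3b was the most abundant, at 392 ± 73.8 RPKM over wild-type and 379 ± 72.2 RPKM over knockout libraries (SD, n = 3 each), with overlap. The other H3.3 gene in the list, H3f3a, had a log2 difference of -0.29 (standard error 0.31), and macroH2A gene H2afy overlapped at 76.7 ± 8.73 and 78.8 ± 8.16 RPKM. H2afz, the gene of H2A.Z, had 84.7, 84.2 and 52.0 RPKM across the wild-type libraries, against 125, 106 and 131 across the knockout libraries, with no overlap. Cenpa, the gene of the centromeric H3 and the cargo of HJURP, had no overlap either and a log2 difference of 1.07 (standard error 0.28). In limma 0 of the 7 passed at an adjusted p of 0.05, and their median log2 difference was 0.40.

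Of 7 genes of heterochromatin proteins that work with DAXX and ATRX, 0 passed in limma, and their median log2 difference was 0.20. That median was 0.09 without knockout replicate 1, 0.13 without wild type replicate 3, 0.31 without knockout replicate 3 and 0.32 without wild type replicate 1. The 3 most abundant, Trim28 (51.9 ± 4.08 and 61.2 ± 16.8 RPKM), Cbx5 (46.6 ± 7.60 and 56.1 ± 12.7 RPKM) and Cbx1 (29.4 ± 6.54 and 36.3 ± 6.72 RPKM), each overlapped between genotypes. Sp100, a PML body protein gene, was the 1 gene of the list with no overlap, with a log2 difference of 0.50 (standard error 0.22).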
